A study of Mus musculus with 16 samples.

Results

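The genes described here encode receptors for extracellular nucleotides: the P2X subunit genes P2rx2, P2rx3, P2rx4, P2rx5, P2rx6 and P2rx7, and the P2Y receptor genes P2ry1, P2ry2, P2ry12 and P2ry14. They were matched by symbol and are 10 of 48795 genes counted in mouse dorsal root ganglia, where the somata of sensory neurons sit. All 10 were among the 19151 genes with enough reads to be tested. One sciatic nerve of each mouse was crushed, and lumbar ganglia (L4 to L6) were taken 24 h or 72 h later and dissociated with a Percoll step before total RNA was sequenced. The groups are injured 24 h, naive 24 h, injured 72 h and naive 72 h, with 4 libraries each. Injured and naive ganglia came from the same 4 mice at a time, so the naive ganglia belong to animals that also carried a crush. Strain, sex and age are not given in the sources used here. It is not stated which injured and naive library share an animal, so p-values measure the spread between these libraries.

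P2X subunits assemble into cation channels that open when ATP binds, and P2Y receptors are G protein-coupled receptors for ATP, ADP, UTP or UDP-sugars. ATP leaves cells that are damaged, stretched or active, and in sensory ganglia it acts on neurons, satellite glia and immune cells. P2X3 is the subunit best known from small-diameter pain-sensing neurons (nociceptors), alone or in channels with P2X2, while P2X4, P2X7 and P2Y12 are best known from immune cells and glia. P2Y1 responds to ADP and P2Y2 to ATP and UTP, both through Gq, whereas P2Y12 (ADP) and P2Y14 (UDP-glucose) couple to Gi.

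The receptor genes did not respond as a block. At 24 h, P2rx5 had risen 1.76-fold and P2ry1 had fallen, and the other 8 genes did not pass the test. At 72 h, P2ry14, P2rx3 and P2rx4 were higher in injured ganglia and P2ry1, P2rx6 and P2ry2 were lower. P2ry1 was the gene lower at both times, by 30.5% at 24 h and by 41.0% at 72 h, and P2ry14 had the largest fold, 2.95, from a very low level. Differences passed when the adjusted p of edgeR's quasi-likelihood test fell below 0.05 (Benjamini-Hochberg over all 19151 genes). By that rule 1 receptor gene was higher and 1 lower at 24 h, where 10.7% of all tested genes were higher and 8.31% lower. At 72 h, 3 were higher and 3 lower, against 14.4% and 13.5% of all tested genes. The median log2 fold change of the 10 genes was -0.07 at 24 h and 0.08 at 72 h, and that of all tested genes was -0.01 at both times. In RNA from many dissociated cells together, fewer cells of a type and less RNA per cell cannot be told apart.

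**Figure D1:**
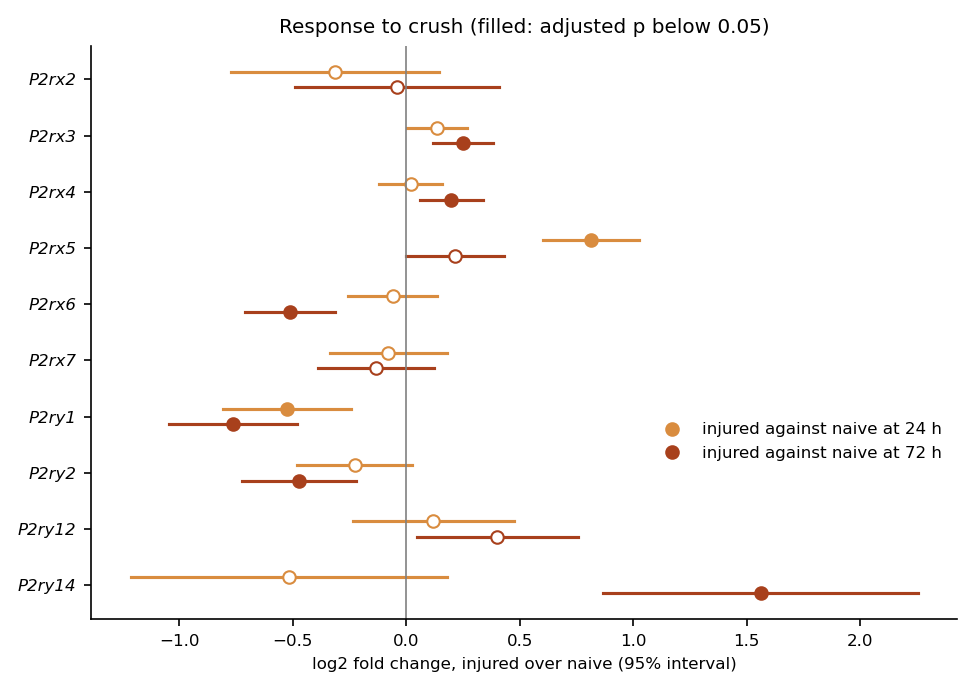
Log2 fold change of each receptor gene, injured over naive, at 24 h (light) and 72 h (dark), with the 95% interval. Filled points passed the adjusted p of 0.05, and P2ry14 at 72 h lies farthest from 0 at 1.56.

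Promoter sequence is shown for 3 genes that moved in different ways: P2ry1, lower at both times, P2rx6, lower at 72 h, and P2ry14, higher at 72 h. Each run is the 250 bases before a RefSeq transcript start on GRCm38.p6, read 5′ to 3′ on the gene's strand. Capitals mark matches, on either strand, to the AP-1 site TGANTCA, the cyclic AMP response element TGACGTCA, the GC box GGGCGG, the TATA box TATAAA or the STAT site TTCNNNGAA.
P2ry1 (chr3:61002535-61002784, plus strand): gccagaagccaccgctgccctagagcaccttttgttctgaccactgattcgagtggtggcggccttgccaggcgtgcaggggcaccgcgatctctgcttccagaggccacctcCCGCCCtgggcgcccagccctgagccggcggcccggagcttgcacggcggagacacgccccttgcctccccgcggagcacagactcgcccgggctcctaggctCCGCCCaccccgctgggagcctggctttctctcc
P2rx6 (chr16:17561635-17561884, plus strand): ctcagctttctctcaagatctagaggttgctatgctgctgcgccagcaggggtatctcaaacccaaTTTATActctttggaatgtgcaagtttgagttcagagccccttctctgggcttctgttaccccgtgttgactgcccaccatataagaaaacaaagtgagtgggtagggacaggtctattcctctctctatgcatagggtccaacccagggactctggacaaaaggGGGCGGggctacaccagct
P2ry14, its first start (chr3:59153493-59153742, minus strand): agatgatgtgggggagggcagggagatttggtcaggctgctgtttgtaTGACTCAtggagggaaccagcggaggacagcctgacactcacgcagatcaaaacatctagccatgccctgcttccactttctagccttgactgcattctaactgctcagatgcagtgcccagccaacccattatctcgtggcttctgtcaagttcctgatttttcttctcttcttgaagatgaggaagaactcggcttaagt
The P2ry1 window held 2 GC boxes, read on the opposite strand. The P2rx6 window held 1 GC box close to the start and 1 TATA box match, also on the opposite strand, farther upstream. The P2ry14 window held 1 AP-1 match, 202 bases before the start. Among 27025 mouse promoter windows of the same length, 32.9% held a GC box, 13% a TATA box, 6.87% an AP-1 site, 7.18% a STAT site and 1.62% a cyclic AMP response element. RefSeq windows were matched for 7 of the 10 genes (12 starts). The AP-1 site was also found at 1 further P2ry14 start, of 4, and at 1 P2rx7 start, of 2. That P2rx7 start also held 2 GC boxes, and the 2 P2ry2 starts held 2 and 4. The fourth P2ry14 start held 1 TATA box match. The shares over all promoters use 1 window per gene, so genes with more starts have more windows to match. A match describes letters in a window and says nothing of binding.

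Levels between genes were compared as CPM (counts scaled to a common library size) per kb of exon, using the union of annotated exons. In naive ganglia at 24 h, P2rx3 stood first at 34.2 ± 2.66 CPM per kb (SD, n = 4). P2ry1 followed at 15.01 ± 1.42, P2rx6 at 9.91 ± 0.35, P2rx4 at 5.92 ± 0.19 and P2rx5 at 5.07 ± 0.25 CPM per kb. Those 5 genes did not overlap with their neighbours in this order. P2ry2 (3.06 ± 0.22), P2ry12 (2.36 ± 0.54), P2rx2 (1.70 ± 0.49) and P2rx7 (1.26 ± 0.07 CPM per kb) each overlapped with the neighbour among them. P2ry14 was last, clear of P2rx7, at 0.121 ± 0.016 CPM per kb. The places of P2ry1, P2rx6 and P2rx4 depend on the length used: over the longest protein-coding transcript they stood at 16.6, 16.9 and 15.4 CPM per kb, and P2ry14 at 0.540. In injured ganglia at 72 h, P2rx4 (6.10 ± 0.08 CPM per kb) and P2rx6 (5.79 ± 0.54) overlapped.

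**Figure D2:**
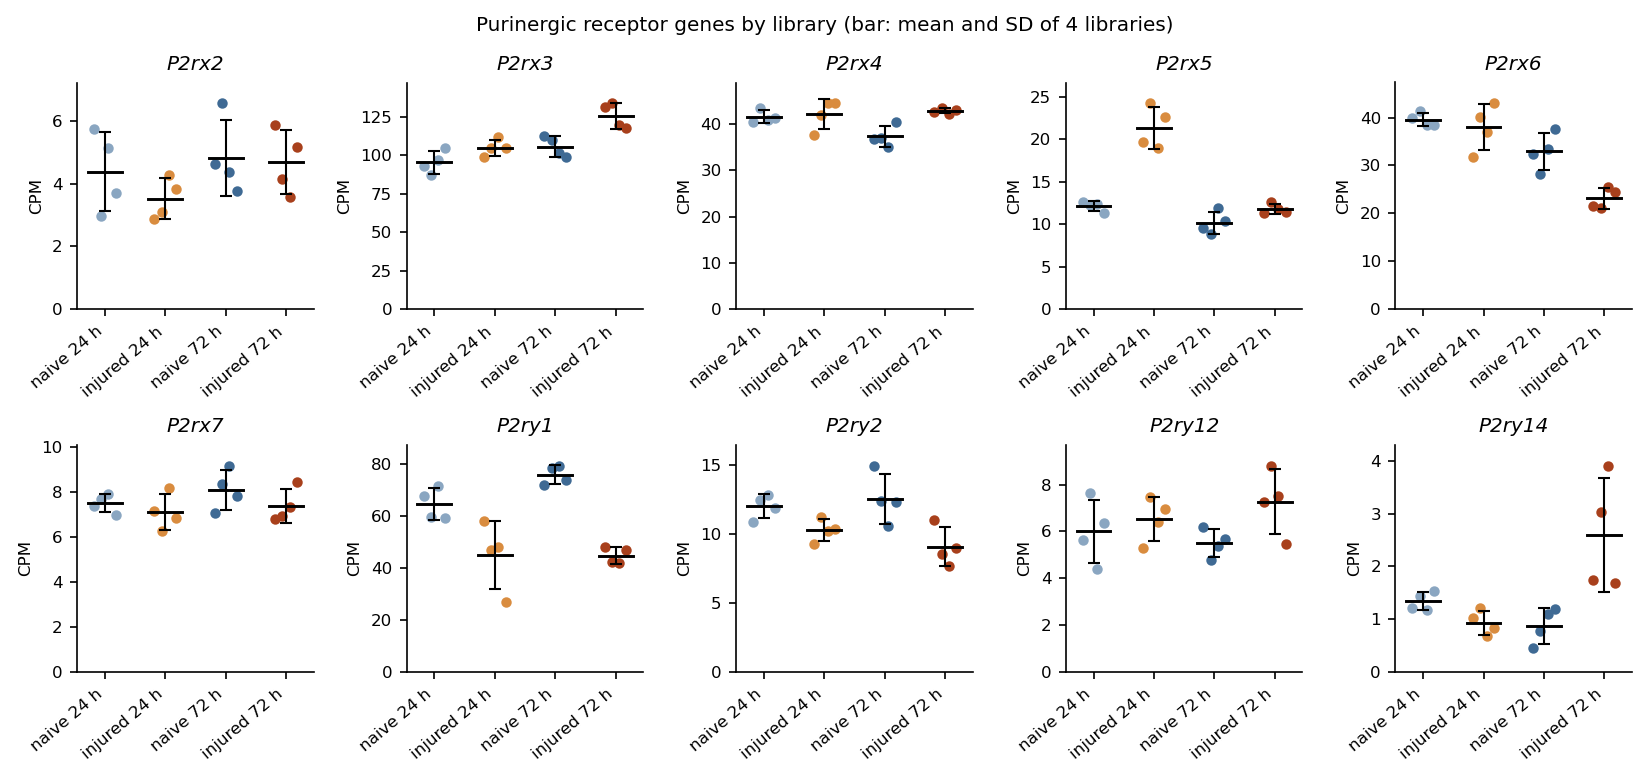
CPM of each receptor gene in every library (points), with the mean and SD of each group of 4 libraries (bars). P2rx5 at 24 h and P2ry1 at both times separate injured from naive libraries, as do P2rx3, P2rx4, P2rx6 and P2ry14 at 72 h.

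P2rx3 (ENSMUSG00000027071, chromosome 2, 84998583 to 85037462, minus strand, GRCm38) was measured at 92.9, 87.1, 96.6 and 105 CPM in the naive libraries at 24 h and at 98.7, 105, 111 and 104 CPM in the injured ones. These ranges overlapped. At 72 h the naive libraries held 112, 110, 101 and 98.8 CPM and the injured ones 131, 134, 119 and 117 CPM, so that every injured library lay above every naive one. The log2 fold change was 0.14 (SE 0.06, adjusted p = 0.148) at 24 h and 0.25 (SE 0.06, edgeR adjusted p = 0.0043) at 72 h. The change between these responses was 0.11 (SE 0.09, adjusted p = 0.587), with a 95% interval of -0.07 to 0.30. P2rx3 shares 51 bases of exon with Ssrp1, a gene on the opposite strand. The log2 fold change of Ssrp1 was -0.13 (SE 0.05) at 24 h and 0.06 (SE 0.05) at 72 h, and neither passed.

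The rise of P2rx3 at 72 h stood beside falls in the other genes that mark the same class of neuron. Of 8 markers of non-peptidergic nociceptors, 6 were lower at 24 h and all 8 at 72 h, with a median log2 fold change of -0.51 and -0.70. Within naive ganglia all 8 were above 0 at 72 h against 24 h (median 0.22), and 1 passed. Within injured ganglia 4 were above and 4 below 0 between the times (median -0.08), and 2 passed as lower. Mrgprd, a receptor of these neurons, fell by 1.00 on the log2 scale at 72 h (SE 0.09), and Gfra2, a co-receptor for the growth factor neurturin, fell by 0.86 (SE 0.10). Scn11a, a sodium channel gene, was at -0.15 (adjusted p = 0.229) at 24 h and fell by 0.74 at 72 h. The log2 level of P2rx3 minus the mean log2 level of the 8 markers was 0.37 ± 0.10 in naive and 0.97 ± 0.17 in injured libraries at 24 h (SD, n = 4). At 72 h it was 0.30 ± 0.06 in naive and 1.27 ± 0.16 in injured libraries. The lowest injured value at 72 h was 1.09 and the highest naive one was 0.38. All 4 markers of peptidergic nociceptors were lower at 72 h as well (median -0.48). Of 12 pan-neuronal genes, 2 were higher and 4 lower at 72 h, with a median of -0.03. Rbfox3, a splicing factor gene of mature neurons, was at -0.60 and Elavl3, a neuronal RNA-binding protein gene, at 0.45. The mean log2 level of the 12 genes at 72 h spanned 8.12 to 8.17 after injury and 8.20 to 8.27 in the naive group, with no overlap (exact 2-sided permutation test, p = 0.0286, the smallest that 4 against 4 libraries can give, adjusted p = 0.16). Their summed level at 72 h was 6663 to 7026 CPM after injury and 7014 to 7275 CPM in the naive group. The part of these shifts in the P2rx3 result was not tested.

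**Figure D3:**
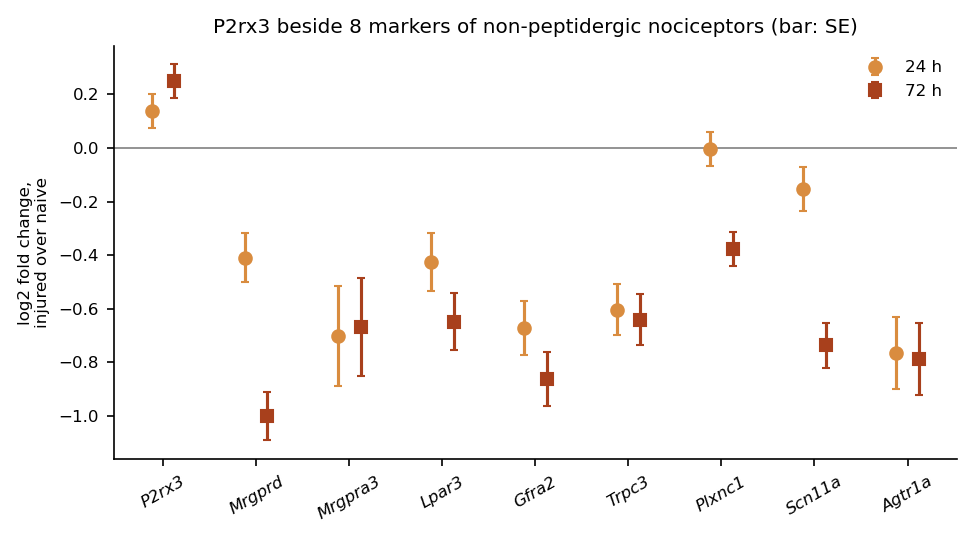
Log2 fold change (injured over naive) of P2rx3 and of 8 marker genes of non-peptidergic nociceptors at 24 h (circles) and 72 h (squares), with SE. P2rx3 lies above 0 at both times, and every marker lies below 0 at 72 h.

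P2rx5 (ENSMUSG00000005950, chromosome 11, 73160421 to 73172685, plus strand) encodes a subunit that desensitizes slowly and can join P2X1 in mixed channels. Naive libraries at 24 h held 12.7, 12.3, 12.4 and 11.3 CPM, and injured ones 19.6, 24.3, 19.0 and 22.6 CPM. The groups were far apart, with a log2 fold change of 0.81 (SE 0.10, edgeR adjusted p = 2.87e-06). By 72 h the naive libraries were at 9.57, 8.83, 11.9 and 10.4 CPM and the injured ones at 11.3, 12.6, 11.8 and 11.4 CPM, which overlap. The 72 h difference was 0.22 (SE 0.10, adjusted p = 0.138). The change of response from 24 h to 72 h was -0.60 in log2 (SE 0.15, adjusted p = 0.0138), and this call held without each library in turn.

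P2rx6 (ENSMUSG00000022758, chromosome 16, 17561885 to 17577800, plus strand) encodes a subunit known chiefly from channels mixed with P2X2 or P2X4. At 24 h, naive libraries held 39.9, 41.4, 38.5 and 38.5 CPM and injured ones 31.7, 40.2, 37.1 and 43.0 CPM, with no separation (log2 fold change -0.06, SE 0.09). At 72 h, naive libraries held 32.4, 28.3, 33.5 and 37.7 CPM and injured ones 21.6, 21.1, 25.6 and 24.4 CPM. All injured libraries were below all naive ones, and the log2 fold change was -0.51 (SE 0.10, edgeR adjusted p = 0.0002). The change of response was -0.45 (SE 0.13, adjusted p = 0.0462), a call that rests on the full set of libraries: it was lost in 13 of 16 fits that left out 1 library, where the adjusted p ranged from 0.0538 to 0.115. It held in the fits that left out replicate 1 of injured 24 h, replicate 3 of injured 72 h, or replicate 2 of naive 72 h.

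P2rx6 shares 554 bases of exon with Slc7a4, a gene of the cationic amino acid transporter family on the opposite strand, and the strand setting of the counting is not given in the sources used here. Slc7a4 was lower at both times, with log2 fold changes of -0.39 (SE 0.11, adjusted p = 0.0149) and -0.31 (SE 0.11, adjusted p = 0.0415). A second table of counts over short windows held 2 testable windows of 24 bases in P2rx6 exons. The first (chromosome 16, 17571566 to 17571589) is one the file annotates as the end of a Slc7a4 transcript. Its counts were 399, 558, 299 and 285 in naive and 272, 308, 282 and 415 in injured libraries at 24 h. At 72 h they were 267, 287, 292 and 436 in naive and 125, 240, 198 and 233 in injured libraries, and every injured count was below every naive one. The log2 fold change was 0.06 (SE 0.16, adjusted p = 0.928) at 24 h and -0.60 (SE 0.16, adjusted p = 0.0243 over 13869 windows) at 72 h. Of all tested windows, 1.90% were lower at 72 h by that rule, and without the filter on low counts this window was no longer among them. The second (chromosome 16, 17571968 to 17571991), annotated as the end of a P2rx6 transcript, held few counts: 3, 6, 8 and 20 in naive and 16, 15, 20 and 31 in injured libraries at 24 h. At 72 h it held 23, 5, 4 and 22 in naive and 10, 13, 12 and 2 in injured libraries. The groups overlapped at both times, and neither difference passed (log2 fold change 1.38, SE 0.75, adjusted p = 0.434 at 24 h, and -0.38, SE 0.75, adjusted p = 0.895 at 72 h). In all, 55 windows lay inside the 10 genes, 35 of them in repeat elements. The repeat windows held 142 counts over all 16 libraries, and 6 of the 55 windows could be tested. Those in P2rx4, P2rx5 and P2ry1 passed at neither time. The P2ry1 window, with 4 to 16 counts per library, was at -0.29 (SE 0.70, adjusted p = 0.924) at 24 h and -0.08 (SE 0.70, adjusted p = 0.980) at 72 h. The P2rx5 window was at 0.55 (SE 0.79, adjusted p = 0.852) at 24 h and 1.05 (SE 0.80, adjusted p = 0.606) at 72 h.

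P2rx4 (ENSMUSG00000029470, chromosome 5, 122707544 to 122729738, plus strand) encodes a channel known, among other places, from lysosomes, macrophages and microglia. At 24 h the injured libraries spanned 37.7 to 44.5 CPM and the naive ones 40.5 to 43.6 CPM (log2 fold change 0.02, SE 0.07). At 72 h, naive libraries held 36.8, 37.0, 35.1 and 40.4 CPM and injured ones 42.6, 43.5, 42.2 and 43.1 CPM. The groups did not overlap, and the log2 fold change was 0.20 (SE 0.07, edgeR adjusted p = 0.0292). This small rise lost its call without naive 72 h replicate 1, 2 or 3 or injured 72 h replicate 1, 2 or 4 (log2 fold change 0.17 to 0.20, adjusted p = 0.0512 to 0.106). Its call was also lost without the filter on low counts (0.18, adjusted p = 0.113). Between the times, the injured libraries differed by 0.02 (SE 0.07) and the naive ones by -0.16 (SE 0.07, adjusted p = 0.236), neither of which passed.

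P2rx2, the partner of P2X3 in mixed channels, and P2rx7, the channel that opens a large conductance at high ATP and acts upstream of interleukin-1 release, did not pass at either time. P2rx2 ranged from 2.88 to 6.57 CPM over the 16 libraries, with log2 fold changes of -0.31 (95% interval -0.77 to 0.14) and -0.04 (-0.49 to 0.41). P2rx7 ranged from 6.25 to 9.18 CPM, with log2 fold changes of -0.08 (-0.33 to 0.18) and -0.13 (-0.39 to 0.12). P2rx2 had the wider intervals and 102 to 308 counts per library.

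Per kb of exon, P2rx3 made up 58.8 ± 2.51% of the summed level of the 6 P2X genes in naive and 58.3 ± 1.95% in injured ganglia at 24 h (SD, n = 4). At 72 h it made up 64.2 ± 2.55% in naive and 69.3 ± 1.83% in injured ganglia. P2rx5 went from 8.76 ± 0.66% to 13.8 ± 1.42% of the sum at 24 h, and P2rx6 from 14.04 ± 1.85% to 8.97 ± 1.19% at 72 h. The sum itself was 58.0 ± 2.10 CPM per kb in naive and 64.6 ± 3.61 in injured libraries at 24 h, and 58.9 ± 1.36 and 64.8 ± 2.59 at 72 h. The shares describe transcripts and not assembled channels. They depend on the exon length used: over the longest protein-coding transcript P2rx3 made up 66.8% of the sum in injured ganglia at 72 h and P2rx4 15.3%, against 9.42% with the union of exons.

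**Figure D4:**
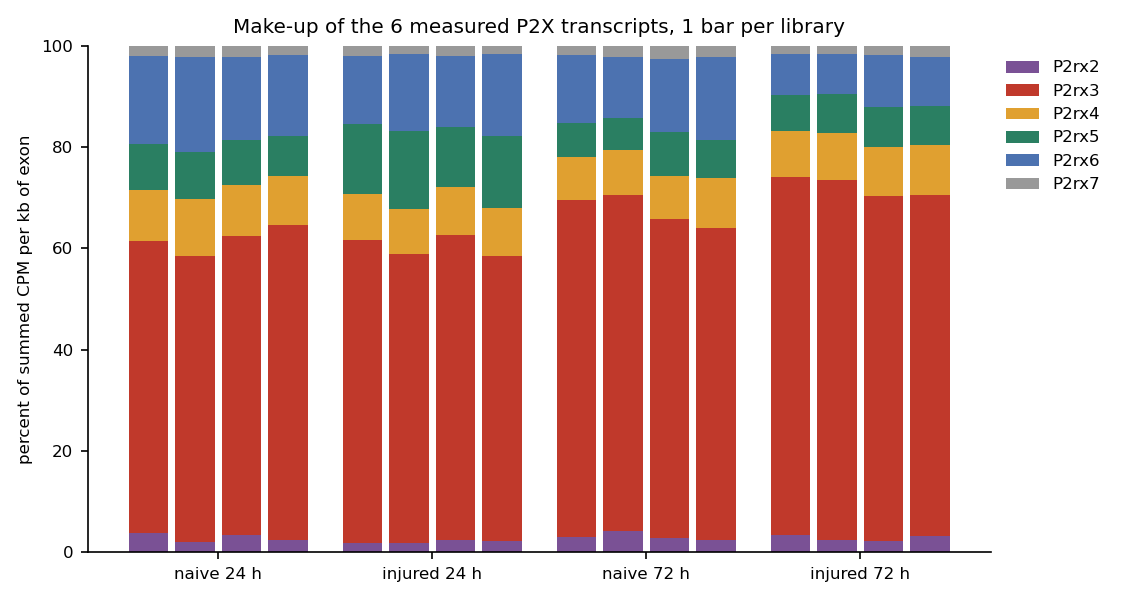
Share of each P2X gene in the summed CPM per kb of exon of the 6 genes, with 1 stacked bar per library. P2rx3 is the largest part in every library, P2rx5 widens in the injured libraries at 24 h, and P2rx6 narrows in those at 72 h.

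P2ry1 (ENSMUSG00000027765, chromosome 3, 61002795 to 61008982, plus strand) was the most abundant P2Y gene per kb. At 24 h, naive libraries held 67.5, 59.6, 71.5 and 59.1 CPM and injured ones 57.7, 46.7, 48.1 and 26.7 CPM. No injured library reached the naive range, but replicate 4 lay well below the other injured libraries. The log2 fold change was -0.53 (SE 0.14, edgeR adjusted p = 0.0076), and without injured 24 h replicate 4 it was -0.34 (SE 0.08, adjusted p = 0.0067). At 72 h, naive libraries held 71.6, 78.3, 79.2 and 73.7 CPM and injured ones 47.8, 42.1, 41.8 and 46.9 CPM. The groups lay well apart, with a log2 fold change of -0.76 (SE 0.14, edgeR adjusted p = 0.0001). The change between the responses, -0.24 (SE 0.19, adjusted p = 0.589), did not pass. Without injured 24 h replicate 4 that change was -0.42 (SE 0.11) with an adjusted p of 0.0266, so its call depends on that library. With all libraries, injured ganglia differed between the times by -0.0039 (SE 0.14). Naive ganglia differed by 0.23 (SE 0.13, edgeR adjusted p = 0.402), and neither of these passed. P2ry1 shares 992 bases of exon with the antisense gene Gm37035, which held 49 counts or fewer in every library. The log2 fold change of Gm37035 was -1.40 (SE 0.75, edgeR adjusted p = 0.220) at 24 h and -1.77 (SE 0.79, edgeR adjusted p = 0.105) at 72 h. Neither passed, and the part of this overlap in the P2ry1 counts was not tested.

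P2ry2 (ENSMUSG00000032860, chromosome 7, 100996568 to 101012866, minus strand) was measured at 10.9, 12.5, 12.8 and 11.9 CPM in naive and 9.25, 11.2, 10.2 and 10.4 CPM in injured libraries at 24 h (log2 fold change -0.23, SE 0.12, adjusted p = 0.219). At 72 h, naive libraries held 14.9, 12.3, 10.5 and 12.3 CPM and injured ones 11, 8.51, 7.68 and 8.98 CPM. One injured library reached into the naive range. The log2 fold change at 72 h was -0.47 (SE 0.12, edgeR adjusted p = 0.0047), and it passed without each library in turn, with an adjusted p of at most 0.0311.

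P2ry14 (ENSMUSG00000036381, chromosome 3, 59113855 to 59153618, minus strand), the receptor for UDP-glucose, was the scarcest of the 10 genes, with 19 to 152 counts per library. Naive libraries at 24 h held 1.21, 1.43, 1.18 and 1.53 CPM and injured ones 1.02, 1.21, 0.678 and 0.824 CPM. Injured values were on the low side but overlapped with naive ones (log2 fold change -0.52, SE 0.34, adjusted p = 0.331). At 72 h, naive libraries held 0.443, 0.768, 1.09 and 1.19 CPM and injured ones 1.74, 3.03, 3.92 and 1.68 CPM. All injured libraries exceeded all naive ones, with a log2 fold change of 1.56 (SE 0.33, edgeR adjusted p = 0.0009). The 95% interval of the fold was 1.83 to 4.77. The response at 72 h exceeded that at 24 h by 2.08 on the log2 scale (SE 0.47, adjusted p = 0.0085). Injured libraries differed between the times by 1.47 (SE 0.34). Naive libraries differed by -0.61 (SE 0.33, edgeR adjusted p = 0.38), which did not pass.

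P2ry12 (ENSMUSG00000036353, chromosome 3, 59216272 to 59262871, minus strand), the platelet and microglial ADP receptor, spanned 4.38 to 7.64 CPM in the naive group and 5.27 to 7.46 CPM in the injured group at 24 h (log2 fold change 0.12, SE 0.17). At 72 h, naive libraries held 6.20, 4.76, 5.36 and 5.68 CPM and injured ones 7.26, 8.81, 7.53 and 5.45 CPM. Replicates 1, 2 and 3 of the injured group lay above all naive libraries and replicate 4 lay among them. The log2 fold change of 0.40 (SE 0.17, adjusted p = 0.0880) did not pass, and without injured 72 h replicate 4 it was 0.52 (SE 0.17, adjusted p = 0.0322). P2ry12 and P2ry14 both lie inside Med12l, a Mediator subunit gene on the opposite strand with 56.8 to 81.3 CPM. P2ry12 shares 9 bases of exon with Med12l and P2ry14 shares 0. The log2 fold change of Med12l was 0.08 (adjusted p = 0.510) at 24 h and -0.15 (adjusted p = 0.172) at 72 h.

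Markers of immune cells moved with the 72 h comparison. Of 14 macrophage markers, 7 were higher in injured ganglia at 72 h, among them C1qa at 1.99 and Csf1r at 1.58 on the log2 scale, and the list's median log2 fold change was 0.01 at 24 h and 1.18 at 72 h. The 3 below 0 at 72 h, Lyz2 (-0.64), Itgam (-0.45) and Tyrobp (-0.42), did not pass. The summed level of all 14 macrophage markers at 72 h spanned 75.0 to 114 CPM after injury and 41.2 to 110 CPM in the naive group. The mean log2 level of that list spanned 1.66 to 2.26 after injury and 0.56 to 1.45 in the naive group (exact 2-sided permutation test, p = 0.0286, the smallest that 4 against 4 libraries can give, adjusted p = 0.16). Neutrophil markers went the other way: of 9, 7 were lower in injured ganglia at 72 h, and the median log2 fold change was -0.30 at 24 h and -1.40 at 72 h. Their summed level at 72 h spanned 41.0 to 159 CPM after injury and 112 to 439 CPM in the naive group, and their mean log2 level overlapped between the groups (exact permutation p = 0.143, adjusted p = 0.364). Within naive ganglia all 9 were above 0 at 72 h against 24 h (median 1.39), and 1 passed. Among microglia-like markers, 1 of 5 tested, Gpr34, was higher at 72 h. The defining gene Tmem119 was at 1.28 ± 0.77 CPM in injured and 0.52 ± 0.33 in naive libraries, and Sall1 was at or near 0. The part of these markers, and of the dissociation and Percoll step before RNA extraction, in the levels of P2rx4, P2ry12 and P2ry14 was not tested. Of 7 satellite glial markers, 1 was higher at each time, with a median log2 fold change of 0.05 at 24 h and -0.01 at 72 h.

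Between the times, injured ganglia differed in 4 of the 10 genes: P2ry14 (1.47 on the log2 scale, SE 0.34, adjusted p = 0.0034) and P2rx3 (0.26, SE 0.06, adjusted p = 0.0062) were higher at 72 h, and P2rx5 (-0.86, SE 0.10) and P2rx6 (-0.72, SE 0.10) were lower. Among all tested genes 7.82% were higher and 7.85% lower in that comparison. P2rx5, P2rx6 and P2ry14 are also the genes whose response to injury changed, 1 upward and 2 downward, where 2.86% and 3.44% of all genes did. Naive ganglia at 72 h and 24 h differed in none of the 10 genes by edgeR or by DESeq2, against 2.34% of all tested genes by edgeR. At an unadjusted p below 0.05, 4 of the 10 differed (P2rx3 higher, P2rx4, P2rx5 and P2rx6 lower at 72 h), as did 16.6% of all tested genes. These comparisons share libraries with the injury comparisons and are not independent of them. In CPM, 1 receptor gene lay wholly higher and 1 wholly lower in injured than in naive libraries at 24 h, where 10% and 8.47% of all tested genes did. At 72 h, 3 lay wholly higher and 2 wholly lower, against 16.3% and 15%.

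The wider purinergic pathway was read from 6 lists of 59 gene names, of which 58 were in the table and 50 had enough reads. At 24 h, 5 of the 50 were higher and 5 lower, where 10.7% and 8.31% of all tested genes were. At 72 h, 5 were higher and 13 lower, where 14.4% and 13.5% of all tested genes were. Their median log2 fold change was -0.04 at 24 h and -0.10 at 72 h. The response changed from 24 h to 72 h in 7 genes, each time toward a more negative value, where 2.86% of all tested genes changed upward and 3.44% downward.

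Among genes that follow receptor activation, Itpr1, the inositol trisphosphate receptor that releases calcium downstream of Gq-coupled receptors such as P2Y1, went from 24.4 ± 4.06 to 94.3 ± 16.4 CPM at 24 h and from 24.6 ± 1.34 to 137 ± 12.9 CPM at 72 h (SD, n = 4). Its log2 fold changes were 1.95 (SE 0.12) and 2.47 (SE 0.12). Plcb3, the phospholipase C that makes inositol trisphosphate, moved the other way, from 621 ± 37.4 to 427 ± 60.6 CPM at 24 h and from 673 ± 57.6 to 376 ± 48.5 CPM at 72 h. The G protein genes Gnaq (-0.47, SE 0.06) and Gnao1 (-0.58, SE 0.07) were lower at 72 h and did not pass at 24 h. Of the 15 genes of G protein coupling, 2 were higher and 5 lower at 72 h. Besides Itpr1, the higher one was the G protein gene Gnai3, of the Gi class. It passed at both times, at 0.25 and 0.35 (SE 0.06 at both times). The Gi class did not move together. Gnai1 was lower at both times, at -0.23 and -0.36 (SE 0.07 at both times), and Gnai2 passed at neither.

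Among genes that clear extracellular nucleotides, Acpp, the acid phosphatase of nociceptors that makes adenosine from AMP, fell by 0.39 on the log2 scale at 24 h and by 0.77 at 72 h (SE 0.10 at both times). Entpd3, which breaks down ATP and ADP, was at -0.07 at 24 h and fell by 0.59 at 72 h (SE 0.07). Nt5e, the ectonucleotidase CD73, rose by 0.29 (SE 0.07) at 24 h and was at -0.07 at 72 h. The adenosine carrier Slc29a2 went from 5.12 ± 0.95 to 17.0 ± 5.30 CPM at 24 h and from 4.75 ± 0.32 to 13.5 ± 1.95 CPM at 72 h, whereas Slc29a1, the other main carrier, fell by 0.39 and 0.53 on the log2 scale. Adk, which phosphorylates adenosine, fell by 0.30 at 72 h (SE 0.07), and Ampd2, an AMP deaminase, fell by 0.35 and 0.41.

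Among channels that let ATP out, Lrrc8a rose by 0.41 at 24 h (SE 0.10), Panx1 rose by 0.25 at 72 h (SE 0.07) and Panx2 fell by 0.63 at 72 h (SE 0.09). Adora1, the Gi-coupled adenosine receptor, was the only gene among 6 other purinergic receptors tested that passed in an injury comparison, going from 114 ± 6.96 to 84.4 ± 5.30 CPM at 72 h (log2 fold change -0.44, SE 0.06). Of 7 inflammasome and cytokine genes downstream of P2X7, Nek7 alone passed in an injury comparison, with a fall of 0.35 at 72 h (SE 0.07).

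**Figure D5:**
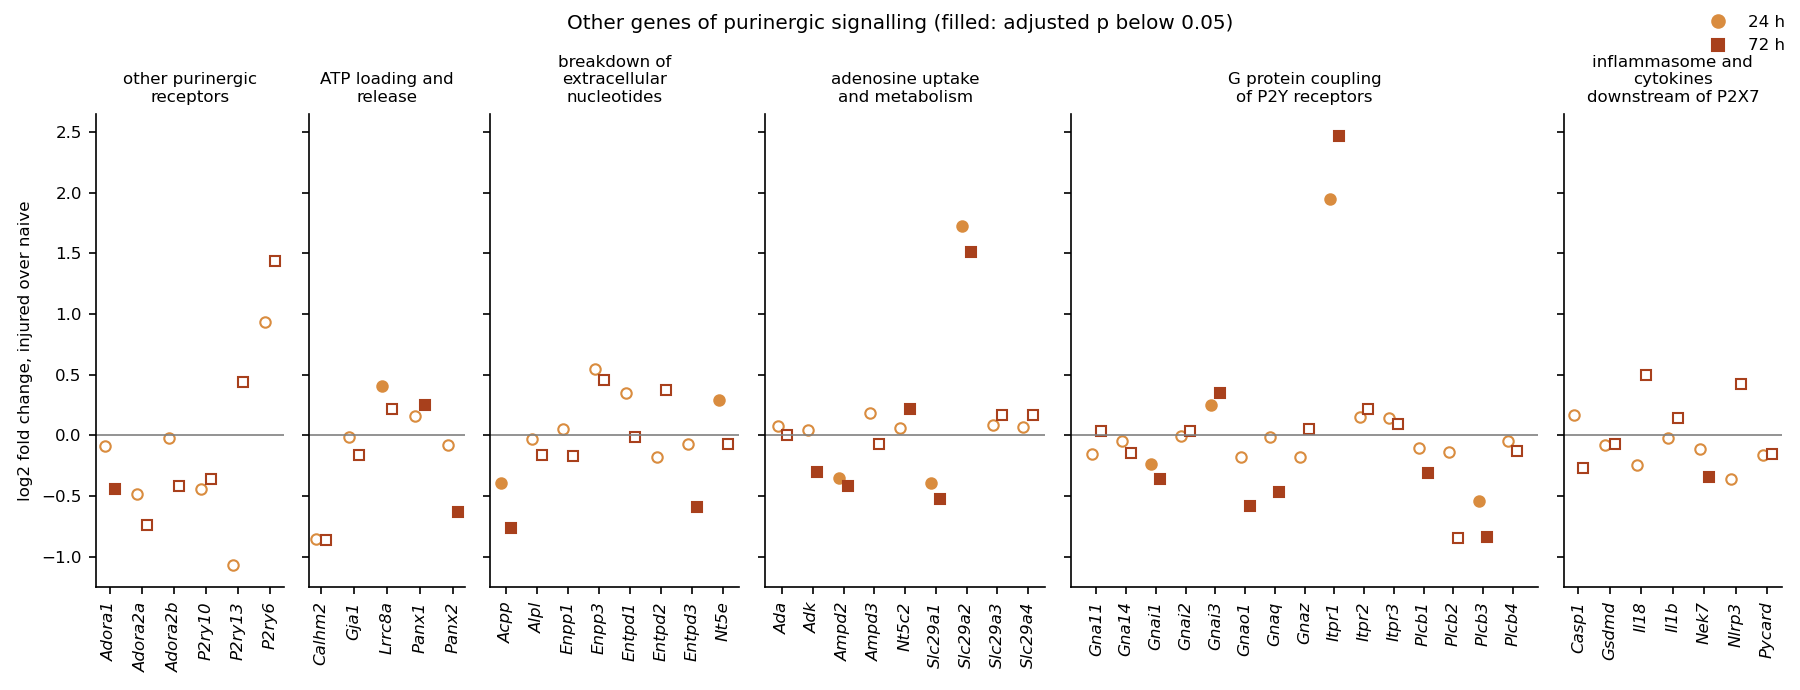
Log2 fold change (injured over naive) of the 50 other purinergic genes tested, by list, at 24 h (circles) and 72 h (squares); filled symbols passed the adjusted p of 0.05. Itpr1 and Slc29a2 lie highest, and most of the filled 72 h symbols lie below 0.

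The genes whose profile over the 16 libraries was most like a receptor's were found as the smallest root mean square difference of centred log2 CPM, as a description. For P2rx5 the nearest were Rora, a nuclear receptor gene (0.162), and Cdr2 (0.187), where the spread of P2rx5 itself was 0.422. For P2rx3 they were Tagln2 (0.066) and Slc44a2 (0.066), against a spread of 0.164. For P2rx6 they were Cygb (0.090) and Ckmt1 (0.093), against 0.330, and for P2rx4 Ube2m (0.043) and Prmt5 (0.049), against 0.102. For P2ry1 they were Ccdc141 (0.112) and Cd55 (0.136), against 0.410, and for P2ry2 Trpv1, the capsaicin receptor (0.099), and Susd2 (0.103), against 0.237. For P2ry14 they were Gabrg1, a GABA receptor subunit gene (0.432), and Cckar, a cholecystokinin receptor gene (0.437), against 0.719, so that neither followed it closely. Gabrg1 and Cckar had log2 fold changes of 1.72 and 1.75 at 72 h. For P2rx2 the nearest gene was Smarce1-ps1 (0.240, against a spread of 0.342), then Usp49. For P2rx7 it was Xrcc5 (0.098, against 0.138), then Eml3, and for P2ry12 Rhbdd1 (0.160, against 0.266), then Wdr54. Next to those spreads, the genes nearest to P2rx2, P2rx7 and P2ry12 did not follow them closely either.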

How the data were processed

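Both tables are whole-number read counts as deposited by the authors, one per gene and one per short genomic window. Per the submitters' processing notes, bcl2fastq 2.17, STAR and HTSeq were used with builds GRCm38 and mm10. The strand setting and annotation release are not given in the sources used here. Column names state the time for 24 h only, and the others were taken as 72 h by elimination. Libraries held 32758978 to 56484541 counts. Pairs within a group all differed beyond sampling noise (lowest chi-square over its degrees of freedom 9.24).

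Genes passing filterByExpr (minimum count 10, minimum total 15) entered edgeR 4.0.16 (R 4.3.3), using TMM factors and a quasi-likelihood fit of 16 libraries with group as the only term. SE is the absolute log2 fold change over the square root of F. Windows were tested with the gene table's library sizes. Exon lengths and gene positions are from GENCODE M21. CPM are counts over the TMM-scaled library size. The script was tested on simulated data. Alternatives were DESeq2 1.42.0, RLE and upper-quartile factors, no filter, 8 libraries only, a replicate block, each library left out, and other exon lengths.

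The receptor genes, 6 pathway lists and 14 marker lists were chosen with earlier results of these data known. Named pathway genes are, per list, up to 4 that passed in either injury comparison, with the smallest p. Gnai3, Gnai1 and Gnai2 were added to these after their values were seen. Tmem119, Sall1 and the other marker genes named were chosen after their values were seen.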

Additional observations from a re-analysis of the deposited data

Results flagged for a closer look

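The response to injury differed between 24 h and 72 h, by the test of the difference itself (edgeR, adjusted p below 0.05), in 3 receptor genes. The log2 response at 72 h minus that at 24 h was 2.08 for P2ry14 (adjusted p = 0.0085), -0.60 for P2rx5 (adjusted p = 0.0138) and -0.45 for P2rx6 (adjusted p = 0.0462). P2rx5 was higher in 4 of 4 injured libraries at 24 h, and P2ry14 in 4 of 4 at 72 h. The call of P2rx6 was lost in 13 of 16 fits that left out 1 library (adjusted p = 0.0538 to 0.115).

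The same difference passed in 7 pathway genes, all toward a lower response at 72 h. It was -0.55 for Panx2 (adjusted p = 0.0061), -0.52 for Entpd3 (0.0013), -0.45 for Gnaq (0.0012), -0.40 for Gnao1 (0.0089), -0.37 for Nt5e (0.0243), -0.35 for Adora1 (0.0164) and -0.35 for Adk (0.0277). In 40 groups of 4 values (10 receptor genes in 4 groups), no single library stood apart by Dixon's test at the 95% level.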

How the results depend on the processing

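The counts of receptor genes past the threshold were 2 at 24 h, 6 at 72 h, 3 for the change of response, 0 for naive ganglia and 4 for injured ganglia between times. Leaving out each library gave 2, 5 to 6, 2 to 3, 0 and 4. Without the filter on low counts, 1 receptor gene passed in naive ganglia (P2ry1, 0.23, adjusted p = 0.0389), 6 pathway genes passed there in place of 2, and 20 in place of 13 passed in injured ganglia between times. DESeq2 passed 5 pathway genes in naive ganglia, and leaving out a library 0 to 4. With upper-quartile factors the P2rx6 change of response lost its call (-0.45, adjusted p = 0.0527) and the P2rx4 difference at 24 h was -5.47e-05. Fits without 1 library turned the sign of values near 0 that passed nowhere: at 24 h P2rx4 (-0.0077 to 0.069), P2rx6 (-0.12 to 0.019) and P2ry12 (-0.0061 to 0.26), at 72 h P2rx2 (-0.16 to 0.14), for the change P2rx7 (-0.13 to 0.017), in injured ganglia between times P2rx4 (-0.026 to 0.051), P2rx7 (-0.019 to 0.12) and P2ry1 (-0.19 to 0.14), and in naive ganglia P2rx2 (-0.041 to 0.30), P2ry12 (-0.26 to 0.014) and P2ry2 (-0.031 to 0.14). Shares over the longest transcript and the longest protein-coding transcript (the latter chosen after seeing the data) were 62.8% and 56.2% for P2rx3 in naive 24 h, and 72.3% and 66.8% in injured 72 h. P2ry1 made up 61.7% of the P2Y sum in injured 72 h over the coding transcript, against 65.9%. The cause of these shifts was not tested, except that the shares change by construction with length. With the replicate number as a block, the counts of receptor genes were again 2, 6 and 3, those of pathway genes were 13, 20 and 10 in place of 10, 18 and 7, and all tested genes went from 3641, 5332 and 1207 to 4335, 5954 and 1692. The labels do not say that a number marks an animal. Same-numbered libraries deviated together with correlations of 0.05 to 0.10 over 8 pairs, and 7 of 8 injured libraries correlated best with their own number, a hint from the data only.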
